A study of Mus musculus with 22 samples.

Results

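Kidneys of Clock knockout mice (KO) taken in the early subjective day were compared with KO kidneys taken in the early subjective night. The arrays were chosen by genotype and time alone: 4 arrays at zeitgeber time (ZT) 0 and 4 formed the early day, and 3 arrays at ZT12 and ZT16 formed the early night, 7 of the 22 arrays of the study. ZT0 marks the former dawn and ZT12 the former dusk of the light cycle. The other arrays are 11 of wild-type kidneys (WT) and 4 of KO kidneys at ZT8 and ZT20. The clock-deficient mice came from a colony founded with heterozygous clock(+/-) pairs. All mice, WT and KO alike, lived for 2 weeks under 12 h of light and 12 h of dark, and then spent 30 h in constant darkness, so day and night here are times without a light signal. Each array held 100 ng of RNA pooled from 2 or 3 mice. The labels give 2 pools for each time except KO ZT16, which has 1, and WT ZT8, which has 1. They name whole kidney as the source of the RNA and left kidney as the tissue, and give neither sex nor age.

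Clock forms a heterodimer with Arntl (Bmal1) that binds E-box elements and drives the genes of its own inhibitors, the Per and Cry proteins, as well as the nuclear receptors Nr1d1 and Nr1d2 (Rev-erbs), which hold Arntl down. The PAR bZIP factors Dbp, Tef and Hlf pass this rhythm on to output genes. Daily rhythms of transcripts can also follow feeding, body temperature and adrenal glucocorticoids. The chaperones of the endoplasmic reticulum (ER), which fold secreted and membrane proteins, are induced together by the unfolded protein response, and those of the cytosol by heat shock factors.

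Values are log2 expression per probe set, and a difference is the early day mean minus the early night mean, so negative differences are higher in the early night. Errors after ± are standard errors of a limma fit to all 22 arrays unless SD is written, and a gene was called where its p, adjusted by Benjamini-Hochberg over 13967 genes, was under 0.05. The p-values measure the spread between pools, since nothing in the labels ties pools to separate litters or days. An exact permutation test of 4 against 3 arrays can give no two-sided p below 0.0571, so none was used for single genes. In whole-kidney RNA, fewer cells of a type and less RNA per cell cannot be told apart. Correlations between the 7 arrays over all genes tested were 0.989 to 0.995. The Clock probe set read 8.96 ± 0.08 (SD, n = 4) in the early day and 8.96 ± 0.12 (SD, n = 3) in the early night. It does not check the genotype, since the deleted part of Clock is not given in the labels. Markers of kidney cells had similar ranges in both windows: the mean of 12 proximal tubule markers was 12.17 to 12.26 in the day arrays and 12.19 to 12.22 in the night arrays, that of 7 thick ascending limb markers 10.97 to 11.04 and 11.03 to 11.05, that of 9 principal cell markers 8.96 to 9.07 and 8.98 to 9.05, and that of 6 podocyte markers 7.26 to 7.40 and 7.25 to 7.33.

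A small set of genes rose from the early day to the early night in KO kidneys, and limma called none in the other direction. The 8 called genes, 0.0573% of those tested, were all higher in the early night: the N-acetyltransferase family member Nat8f5, the clock repressor Per2, the ER chaperone genes Creld2, Hspa5 and Hyou1, the glucocorticoid-induced Tsc22d3 (Gilz), the monocarboxylate transporter family member Slc16a14 and Alas1, the first enzyme of heme synthesis. Genes called as higher in the early day numbered 0 (0%), while 351 (2.51%) had an unadjusted p under 0.05 in that direction and 381 (2.73%) in the other, 732 (5.24%) in all. The 3 night arrays lay above all 4 day arrays for 405 genes (2.9%), 7 of the 8 called genes among them, and the day arrays above the night arrays for 478 (3.42%). With the spread taken from the 7 arrays alone, 0 genes were called in either direction, with 380 at an unadjusted p under 0.05 higher in the early night and 451 higher in the early day, and with the 11 KO arrays alone 1 of the night genes was called, Creld2.

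**Figure D1:**
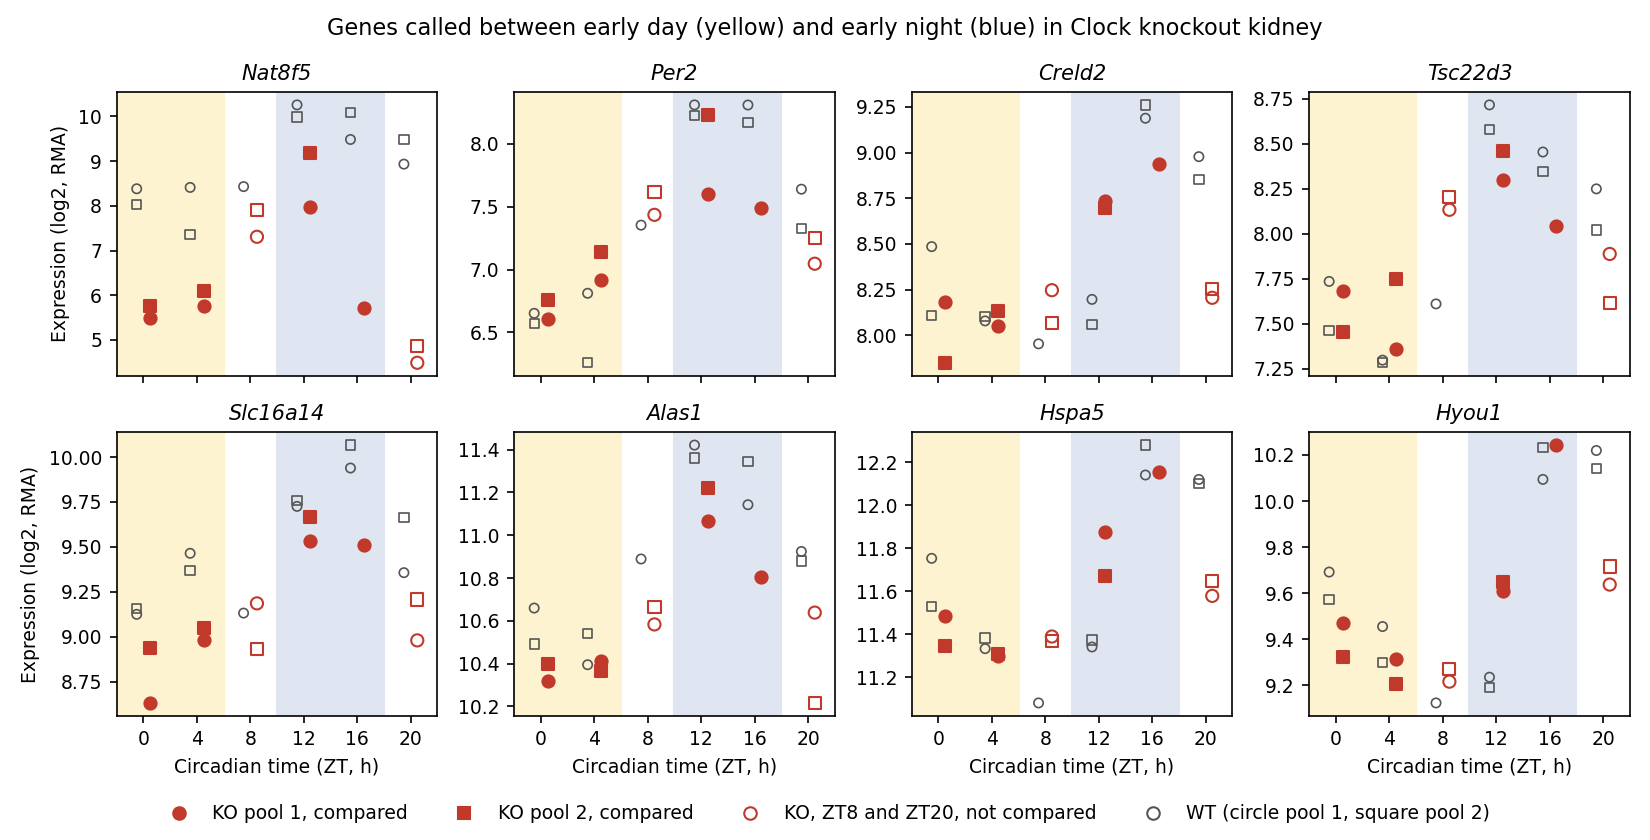
Log2 expression (vertical axes, 1 scale per gene) of the 8 called genes against circadian time in hours, with KO arrays in red and WT arrays as grey open symbols, each point 1 pool. In KO, the 3 filled points in the blue band (ZT12 and ZT16) lie above the 4 filled points in the yellow band (ZT0 and ZT4) for each gene except Nat8f5, whose ZT16 pool reads 5.72.

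Creld2, an ER-resident protein induced by ER stress, had the call that held under the most settings. Its KO values were 8.18, 7.85, 8.05 and 8.13 by day, 8.73 and 8.70 at ZT12, and 8.94 at ZT16. Every night array was thus above every day array. The difference was -0.74 ± 0.10 (adjusted p = 0.00958), 1.66-fold higher at night, and it stayed called in 7 of 7 fits that left out 1 of the compared KO arrays. Hspa5, the ER Hsp70 also called BiP or Grp78, read 11.49, 11.35, 11.30 and 11.31 in the day arrays against 11.87 and 11.67 at ZT12 and 12.16 at ZT16. It rose by night 1.45-fold (difference -0.54 ± 0.07, adjusted p = 0.00958). Hyou1 (Grp170), the nucleotide exchange factor of Hspa5, read 9.47, 9.32, 9.31 and 9.21 by day, 9.61 and 9.65 at ZT12 and 10.24 at ZT16. The single ZT16 pool was the highest array for all 3 genes. Hyou1 rose 1.42-fold (-0.51 ± 0.07, adjusted p = 0.00958). Without the ZT16 pool, the difference of Hspa5 was -0.41 (adjusted p = 0.163) and that of Hyou1 -0.30 (adjusted p = 0.382), both no longer called.

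The promoters of Hspa5 and Creld2 are shown because both hold the ER stress element, CCAAT and CCACG separated by 9 bases, which the factors Atf6 and NF-Y bind. The motif was searched on both strands of RefSeq windows (GRCm38.p6) from 250 bases before to 50 after each start, and was added to the search after the expression values had been seen. The last 150 bases before the start follow, 5′ to 3′ on the gene's strand, with the fixed letters of the element in capitals. They lie at chr2:34771940-34772089 (plus strand) for Hspa5, where the element begins 65 bases before the start, and at chr15:88819496-88819645 (plus strand) for Creld2, where it lies on the opposite strand and begins 126 bases before the start.
Hspa5: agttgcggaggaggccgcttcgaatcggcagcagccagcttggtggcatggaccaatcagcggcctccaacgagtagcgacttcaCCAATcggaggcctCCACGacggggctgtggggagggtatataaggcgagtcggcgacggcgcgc
Creld2: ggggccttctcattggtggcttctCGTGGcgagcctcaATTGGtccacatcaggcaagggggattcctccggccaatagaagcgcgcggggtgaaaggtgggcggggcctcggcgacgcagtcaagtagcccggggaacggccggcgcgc
Windows were at hand for 6 of the 8 called genes, and of these 2 held the element (33.3%), against 17 of the 11078 tested genes with a window (0.153%) and 39 of all 32851 windows (0.119%). Among the genes of the ER chaperone list with a window it stood in 7 of 15 (46.7%). The elements of the other 5 are shown for comparison, since these genes share the letters with Hspa5 and Creld2 but were not called. Hsp90b1 has a second copy on the opposite strand, and that of Calr is also on the opposite strand.
Hsp90b1: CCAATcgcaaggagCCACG
Pdia6: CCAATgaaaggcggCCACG
Calr: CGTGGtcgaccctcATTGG
Canx: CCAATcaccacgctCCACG
Dnajc3: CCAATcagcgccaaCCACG

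The ER chaperone list also holds the transcription factors Xbp1, Atf4 and Ddit3, and Herpud1, which acts in ER-associated degradation. Of its 17 measured genes, 16 had the higher mean at night (47.9% of all genes did) and 3 were called (0.0573% of all genes). At an unadjusted p under 0.05, 11 were higher at night and 0 by day (2.73% and 2.51% of all genes). Their median difference was -0.29, against 0.00 over all genes tested. The mean of the 17 genes was 9.85 to 9.98 in the day arrays, 10.13 and 10.09 at ZT12 and 10.34 at ZT16, so each night array stood above each day array. Manf, a secreted factor induced by ER stress, came closest to a call among the rest: it read 8.42, 8.26, 8.21 and 8.41 by day and 8.79, 8.56 and 9.05 by night (-0.48 ± 0.09, adjusted p = 0.0938). Xbp1, a transcription factor of the unfolded protein response, read 9.75 to 10.10 by day and 10.14 to 10.36 by night (-0.39 ± 0.08, adjusted p = 0.213). The disulfide isomerase Pdia4 differed by -0.29 ± 0.07 (-0.67 ± 0.14 on a second, much dimmer probe set) and the co-chaperone Dnajb11 by -0.21 ± 0.08, neither called. The 5 uncalled genes with the element ranged from Hsp90b1 (Grp94) at -0.16 ± 0.06, through Dnajc3 at -0.15 ± 0.07, to Pdia6 at -0.07 ± 0.08, Calr at -0.06 ± 0.06 and Canx at 0.01 ± 0.06. The lectin chaperones Calr and Canx and the isomerase Pdia3 (0.00 ± 0.09) were thus the members with the smallest differences. Of the stress-induced transcription factors, Ddit3 (Chop) differed by -0.32 ± 0.14 and Atf4 by -0.18 ± 0.10, without a call.

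**Figure D2:**
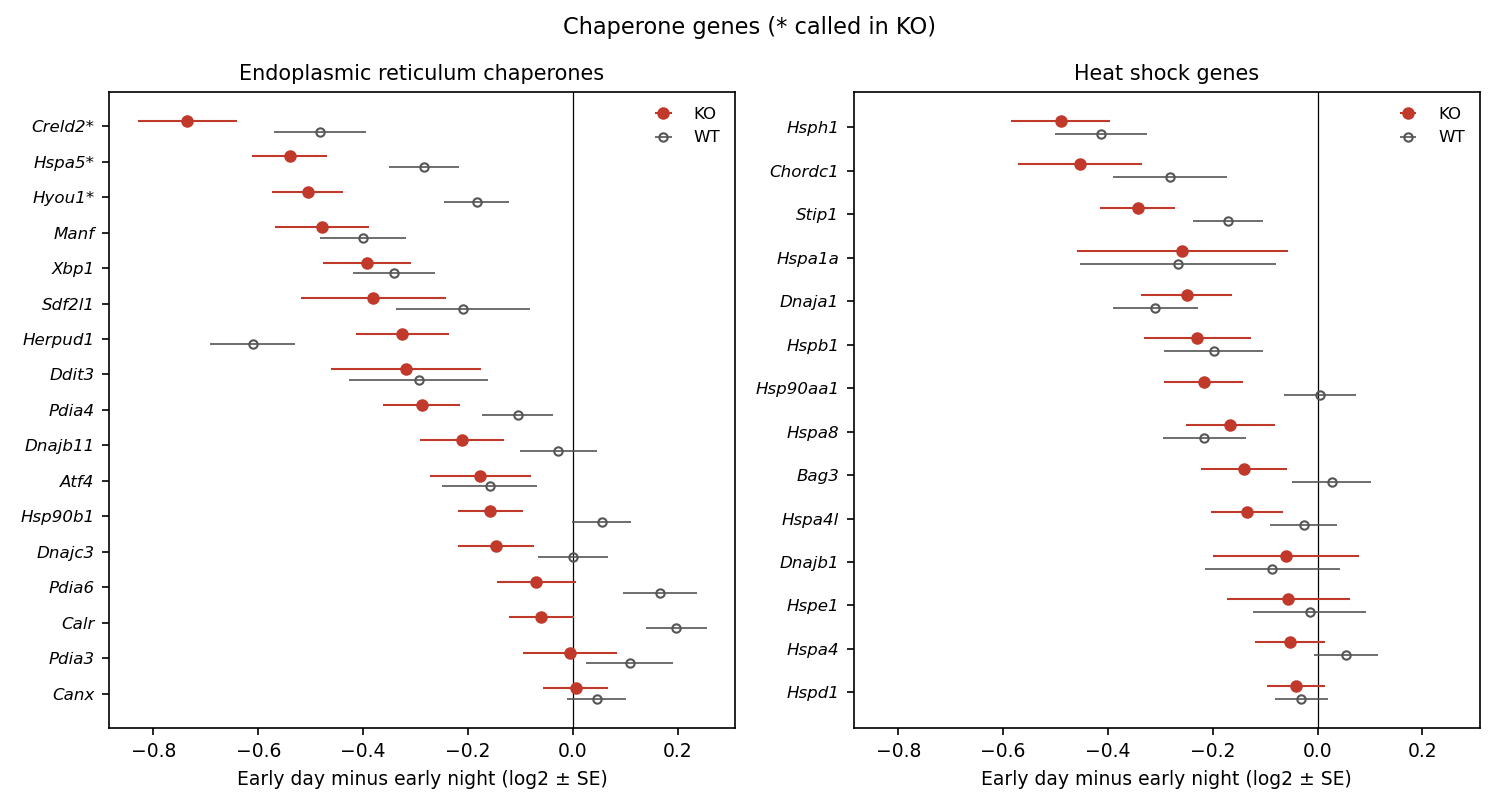
Early day minus early night difference in log2 with its standard error (horizontal axis) for the 17 genes of the ER chaperone list (left) and 14 heat shock genes (right), KO in red and WT in grey. The KO points lie left of zero, higher at night, for 16 of the 17 and for all 14, and the starred Creld2, Hspa5 and Hyou1 are the called members.

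Heat shock genes of the cytosol and mitochondria leaned the same way with smaller differences and no call. All 14 measured members had the higher mean at night (47.9% of all genes did), and the median difference was -0.19. At an unadjusted p under 0.05, 6 were higher at night and 0 by day (2.73% and 2.51% of all genes). Hsph1 (Hsp105), a cytosolic relative of Hyou1, read 9.91, 9.96, 9.72 and 9.96 by day and 10.27, 10.46 and 10.41 by night without overlap (-0.49 ± 0.09, adjusted p = 0.12). Chordc1, a co-chaperone of Hsp90, differed by -0.45 ± 0.12 (adjusted p = 0.442) and Stip1, which links Hsp70 to Hsp90, by -0.34 ± 0.07 (adjusted p = 0.177), both also without overlap. Hspa1a, the classical inducible Hsp70, differed by -0.26 ± 0.20, and the mitochondrial Hspd1 by -0.04 ± 0.05, with 0.01 ± 0.06 on a second, dimmer probe set. Of the cold-inducible RNA-binding genes, which rise as temperature falls, Cirbp read 8.80, 8.57, 9.09 and 9.04 by day and 8.54, 8.52 and 8.41 by night (0.39 ± 0.10, adjusted p = 0.467). Rbm3 differed by -0.13 ± 0.10 and Srsf5 by 0.07 ± 0.08, so 0 of 3 members were called and 1 had an unadjusted p under 0.05.

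Among the clock repressors, Per2 alone was called. It read 6.60, 6.76, 6.91 and 7.14 by day and 7.60, 8.23 and 7.49 by night. The windows did not overlap, and both ZT0 values lay below both ZT4 values. Per2 rose 1.89-fold into the night (-0.92 ± 0.15, adjusted p = 0.0314), a call that was lost without either ZT0 pool (adjusted p = 0.166 and 0.101), without ZT4 pool 1 (0.0686) and without ZT12 pool 2 (-0.69, adjusted p = 0.288). Cry1, which represses Clock and Arntl together with the Per proteins, read 7.27, 7.27, 7.02 and 7.29 by day and 7.68, 7.50 and 7.89 by night (-0.48 ± 0.14, adjusted p = 0.563). Nr1d1 ran the other way, at 8.71, 8.49, 8.76 and 8.68 by day and 7.37, 8.27 and 7.47 by night, also without overlap (0.96 ± 0.23, adjusted p = 0.346). Of the 10 repressors, 8 had the higher mean at night (47.9% of all genes did) and 1 was called (0.0573% of all genes). At an unadjusted p under 0.05, 3 were higher at night and 1 by day (2.73% and 2.51% of all genes). Their median difference was -0.22.

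KO ZT12 pool 2 stood apart in the clock genes from pool 1 of the same time. Ciart (Chrono), an Arntl-binding repressor, read 7.38 in that pool and 5.29 in the other, and Dbp 9.39 against 7.51, while the WT pools at ZT12 read 9.33 and 8.45 for Ciart and 10.50 and 10.60 for Dbp. The mean of the 10 repressors was 7.86 in that pool, against 7.17 in pool 1, 7.04 at ZT16 and 6.99 to 7.40 in the day arrays. At KO ZT8, outside the comparison, pool 2 was also the higher. Ciart read 7.03 there in pool 2 and 5.32 in pool 1, Dbp 9.69 and 8.04, and the repressor mean was 7.85 and 7.30. The source of the gaps between the pools was not tested. The differences of Ciart (-0.81 ± 0.43) and Dbp (-0.42 ± 0.40) were not called, and their windows overlapped.

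The E-box CACGTG, the element through which Clock and Arntl act, is shown in the promoters of Ciart and Cry1, whose KO values are given above. The last 150 bases before the start are at chr3:95882229-95882378 (minus strand) for Ciart and chr10:85185055-85185204 (minus strand) for Cry1, written on the gene's strand with E-boxes in capitals.
Ciart: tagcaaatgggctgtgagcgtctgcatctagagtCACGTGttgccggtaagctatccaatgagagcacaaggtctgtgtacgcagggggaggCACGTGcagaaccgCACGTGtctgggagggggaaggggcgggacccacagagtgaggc
Cry1: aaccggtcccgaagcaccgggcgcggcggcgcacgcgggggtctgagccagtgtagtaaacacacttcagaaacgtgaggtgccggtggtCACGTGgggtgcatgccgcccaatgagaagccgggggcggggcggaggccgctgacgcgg
This motif, which reads the same on both strands, stood in 4 of the 8 repressor genes with a window (50%), in 0 of the 6 called genes with a window, and in 11.3% of tested genes. A window was not at hand for Per2 or Hyou1. The D-box TTATGTAA, bound by Dbp, Tef and Hlf, stood in 0 of the 6 (0.686% of tested genes), and the nuclear receptor element AGGTCA, on either strand, in 2 of the 6 (15.6% of tested genes).

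Of the 4 measured activators, 0 were called in KO by limma and 0 had an unadjusted p under 0.05. Arntl read 8.41, 8.31, 7.91 and 7.61 by day and 8.20, 7.91 and 8.69 by night (-0.20 ± 0.16). The windows overlapped, and the highest array was the ZT16 pool. Rora differed by -0.09 ± 0.10 and Arntl2 by -0.02 ± 0.12. Of the PAR bZIP factors and their antagonist Nfil3, all 4 had the higher mean at night (47.9% of all genes did) and 0 were called. An unadjusted p under 0.05 was found for 2 (2.73% of all genes on the night side): Nfil3 at -0.51 ± 0.18 and Hlf at -0.27 ± 0.11. The windows of both overlapped, with Nfil3 at 7.67 in ZT0 pool 1 and 7.45 in ZT12 pool 2.

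**Figure D3:**
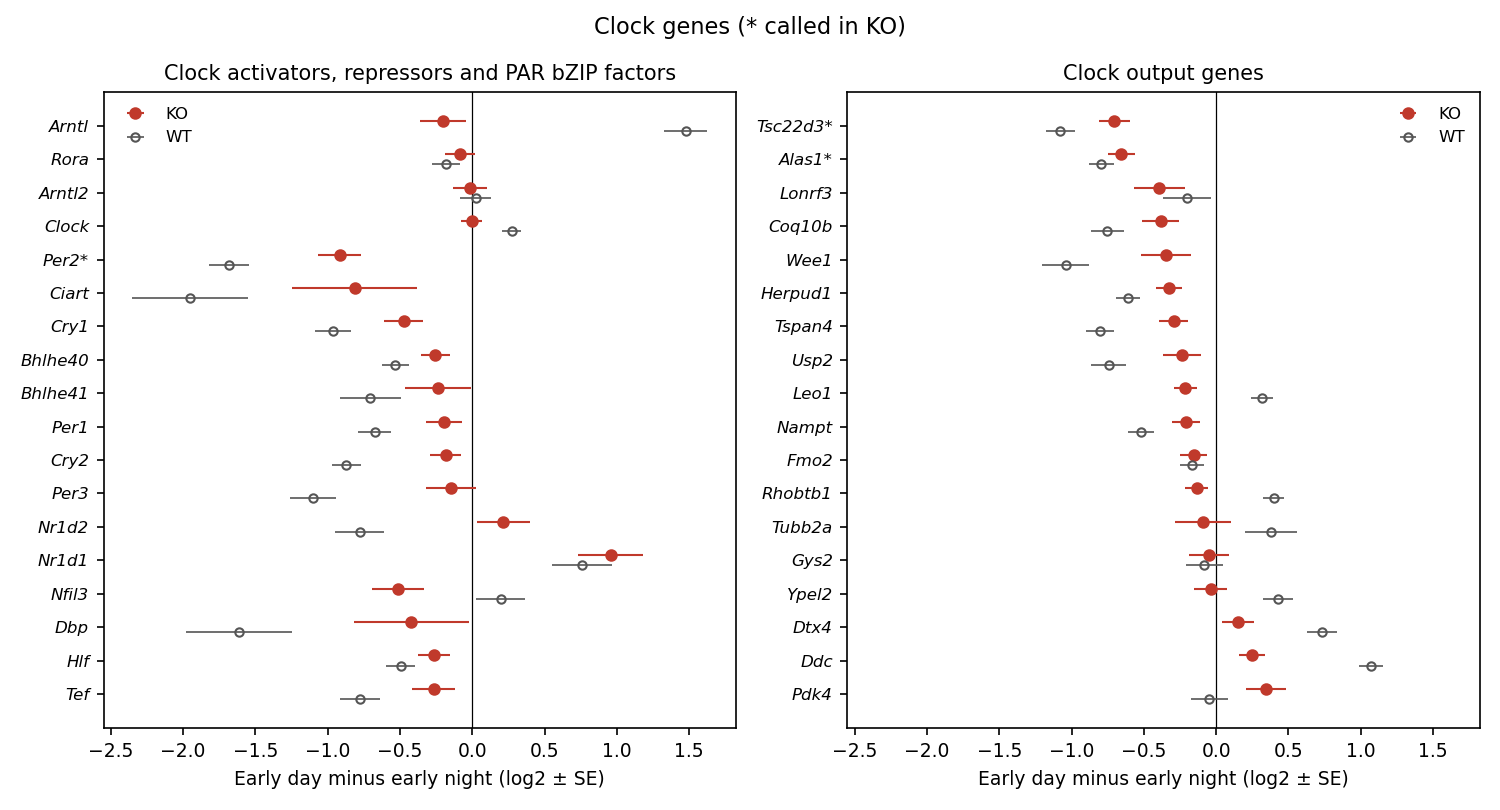
Early day minus early night difference in log2 with its standard error (horizontal axis) for clock activators, repressors and PAR bZIP factors (left) and clock output genes (right), KO in red and WT in grey. The starred Per2, Tsc22d3 and Alas1 are the called genes, and the widest gap between the genotypes is that of Arntl, at -0.20 in KO and 1.47 in WT.

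Of 18 output genes of the clock, 2 were called, Alas1 and Tsc22d3 (0.0573% of all genes were called). Tsc22d3 also stands in the glucocorticoid-responsive list and in that of distal sodium regulators. Other genes are shared between lists too, so the lists are not separate. Herpud1 stands in the output and ER chaperone lists, and Per1 in the repressor and glucocorticoid-responsive lists. Pdk4 stands in the output, glucocorticoid-responsive and fatty acid oxidation lists. Alas1 read 10.32, 10.40, 10.41 and 10.37 by day and 11.07, 11.22 and 10.80 by night. It rose 1.58-fold (-0.66 ± 0.09, adjusted p = 0.0136) and was highest at ZT12. Tsc22d3, an X-linked leucine zipper gene that glucocorticoid and mineralocorticoid receptors induce, read 7.68, 7.45, 7.36 and 7.75 by day and 8.30, 8.46 and 8.05 by night. It rose 1.63-fold (-0.71 ± 0.11, adjusted p = 0.0225), again highest at ZT12. Both calls were lost without ZT12 pool 1 (adjusted p = 0.0695 and 0.135) and without ZT12 pool 2 (0.188 and 0.288), that of Alas1 also without ZT0 pool 1 (0.0566), and that of Tsc22d3 without ZT0 pool 2 (0.0692). In the list, 7 genes had an unadjusted p under 0.05 higher at night and 2 higher by day (2.73% and 2.51% of all genes). The median difference was -0.21. Wee1, a cell cycle kinase, differed by -0.35 ± 0.18, Usp2, a deubiquitinase, by -0.23 ± 0.13, and Pdk4, which limits pyruvate oxidation, by 0.34 ± 0.14.

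The glucocorticoid-responsive genes pointed both ways. Of 15 measured members, 1 was called (Tsc22d3, with 0.0573% of all genes called), and the median difference was -0.10. At an unadjusted p under 0.05, 4 were higher at night and 3 by day (2.73% and 2.51% of all genes). Fkbp5, a co-chaperone that dampens the glucocorticoid receptor, read 8.17, 8.62, 8.71 and 8.39 by day and 9.19, 9.52 and 8.73 by night. The windows barely separated, and the difference was -0.67 ± 0.12 (adjusted p = 0.0511), which passed the threshold without the ZT16 pool (-0.88, adjusted p = 0.0267), ZT0 pool 2 (0.024) or ZT4 pool 1 (0.0333). Zbtb16, a zinc finger repressor, differed by -0.63 ± 0.22, with 8.29 in ZT12 pool 2 against 7.08 in pool 1. Sgk1, the kinase that raises distal sodium uptake, read 8.32 to 8.64 by day and 8.69 to 8.81 by night without overlap (-0.28 ± 0.12, adjusted p = 0.887). The metallothioneins lay on the day side, Mt1 at 0.22 ± 0.08 and Mt2 at 0.36 ± 0.14, while the phosphatase gene Dusp1 differed by -0.18 ± 0.22.

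Nat8f5 had the largest difference of all 13967 genes, and the least even. It read 5.49, 5.75, 5.76 and 6.10 by day, 7.96 and 9.19 at ZT12, and 5.72 at ZT16. The ZT16 pool thus fell inside the range of the day arrays, and the 3.59-fold rise (-1.85 ± 0.29, adjusted p = 0.0275) rested on the ZT12 arrays. In the other KO arrays Nat8f5 averaged 7.61 at ZT8 and 4.67 at ZT20. Without ZT12 pool 2 the difference was -1.06 (adjusted p = 0.712). The call was also lost without ZT12 pool 1 (adjusted p = 0.0695), ZT0 pool 1 (0.137), ZT0 pool 2 (0.0718) or ZT4 pool 1 (0.0686).

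Slc16a14 belongs to the monocarboxylate transporter family. It read 8.63, 8.94, 8.98 and 9.05 by day and 9.53, 9.67 and 9.51 by night. It rose 1.59-fold (-0.67 ± 0.10, adjusted p = 0.0148). The call was lost without ZT0 pool 1 (-0.58, adjusted p = 0.072), ZT12 pool 1 (0.0695) or ZT12 pool 2 (0.159). Beyond the called genes and Fkbp5 and Hsph1, given above, the largest night-side differences whose windows did not overlap were those of Slc22a26, an organic anion transporter family member (-0.97 ± 0.27, adjusted p = 0.477), Angptl7, a secreted angiopoietin-like protein (-0.84 ± 0.20, adjusted p = 0.364), the ABC transporter Abca8a (-0.52 ± 0.13), Gldc, the decarboxylase of glycine cleavage (-0.50 ± 0.10, adjusted p = 0.162), and Gm10590 (-0.49 ± 0.11), whose 4 probe sets hold identical values and may read copies of the gene.

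No gene passed the threshold as higher in the early day. The largest day-side differences without overlap at an unadjusted p under 0.01 are given as values only. That limit left out genes such as the fat cell marker Ucp1 (0.93) and the proliferation gene Rrm2 (0.71), whose windows did not overlap either. Igfbp1, a binding protein of insulin-like growth factors that fasting induces in liver, read 7.83, 6.996, 7.28 and 7.58 by day and 6.04, 6.45 and 6.84 by night (0.98 ± 0.26, adjusted p = 0.456). Bcl6, a transcriptional repressor, read 9.19, 9.28, 8.75 and 8.83 by day and 7.62, 8.60 and 8.65 by night (0.72 ± 0.24, adjusted p = 0.692), with ZT12 pool 1 lowest. Slc6a19, the neutral amino acid transporter of the proximal tubule brush border, read 11.01, 10.97, 11.02 and 11.29 by day and 10.47, 10.84 and 10.48 by night (0.47 ± 0.11, adjusted p = 0.263). Mrnip, a DNA repair factor, read 8.28 to 8.40 by day and 7.91 to 8.05 by night (0.37 ± 0.07, adjusted p = 0.162). Asb9 differed by 0.42 ± 0.11, the anion exchanger Slc26a6 by 0.39 ± 0.12, and Bhmt, which makes methionine from betaine, by 0.40 ± 0.13. The remaining genes of this kind, Rps23rg1, Atxn1, Ifitm7, Gm11992 and Lrrc31, lay between 0.38 and 0.43, and Rps23rg1 may share signal with its parent gene. Alas2, the erythroid counterpart of Alas1, read 7.07, 7.16, 7.54 and 7.47 by day and 6.77, 6.61 and 5.82 by night (0.91 ± 0.19, adjusted p = 0.165).

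The comparison joins 2 pairs of opposite times that share no array, ZT0 against ZT12 and ZT4 against ZT16. The pairs were not tested against each other, and the 1 pool at ZT16 makes the latter pair less precise. Their lists of called genes thus do not show that the pairs differ. ZT0 against ZT12 had 6 called genes (0.043%), Nat8f5, Per2, Slc16a14, Alas1, Fkbp5 and 4930578G10Rik, all higher at ZT12. ZT4 against ZT16, with 1 pool at ZT16, had 2 (0.0143%), Hspa5 and Hyou1, both higher at ZT16. Without ZT0 pool 1 or ZT12 pool 2, limma called 0 genes as higher at ZT12 (324 and 217 at an unadjusted p under 0.05), and without ZT0 pool 2 or ZT12 pool 1 it called 3. Higher at ZT16 it called 1 gene without ZT4 pool 1 and 0 without ZT4 pool 2 (331 at an unadjusted p under 0.05). Read in the pair that did not choose them, 5 of the 6 kept their sign and 2 had an unadjusted p under 0.05, and both chaperones kept their sign with an unadjusted p under 0.05. Nat8f5 was -2.95 ± 0.38 in the former pair and 0.21 ± 0.47 in the latter, and Per2 -1.23 ± 0.19 and -0.46 ± 0.24. Of the chaperones, Hspa5 was -0.36 ± 0.09 and -0.85 ± 0.11, Hyou1 -0.23 ± 0.09 and -0.98 ± 0.11, and Creld2 -0.70 ± 0.12 and -0.84 ± 0.15.

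By group, the clock repressors had a median of -0.40 from ZT0 to ZT12 and 0.18 from ZT4 to ZT16, with 9 and 4 of 10 higher at the night time. All 13967 genes had medians of 0.003 and 0.005, with 6855 and 6777 higher at the night time. Nr1d2 (-0.38 ± 0.24 and 1.18 ± 0.30), Per3 (-0.69 ± 0.23 and 0.70 ± 0.28) and Ciart (-1.52 ± 0.57 and 0.37 ± 0.69) had opposite signs, and none of these was called in either pair. The ER chaperone genes had medians of -0.13 and -0.46, with 12 and 16 of 17 higher at the night time. At an unadjusted p under 0.05, 7 of them were higher at ZT12 (3.58% of all genes were) and 13 at ZT16 (1.81%). The heat shock genes had medians of -0.16 and -0.18, with 14 and 13 of 14 higher at the night time, and the glucocorticoid-responsive genes -0.17 and 0.15. Across all 13967 genes, which are not independent replicates, Pearson's r between the pairs was -0.05.

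**Figure D4:**
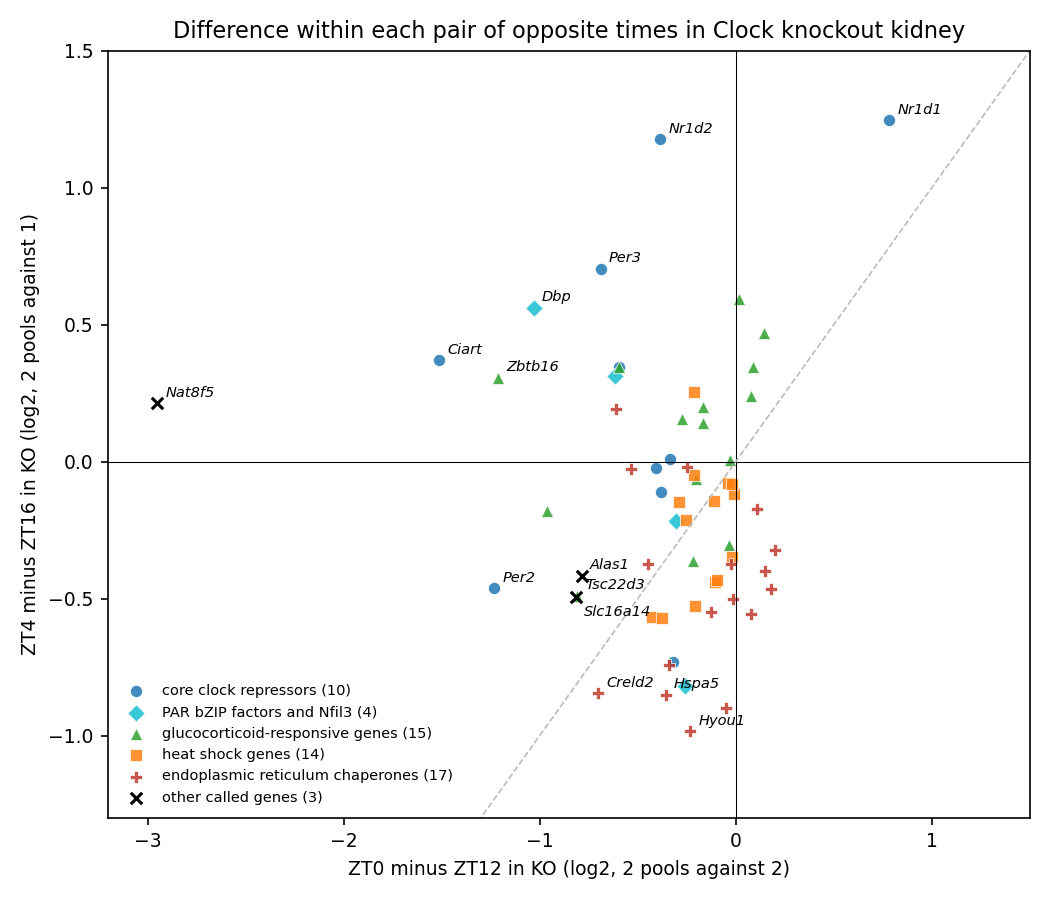
KO difference of ZT4 minus ZT16 (vertical axis, log2) against that of ZT0 minus ZT12 (horizontal axis, log2), 1 point per gene, for 5 gene lists and the other called genes; the dashed line marks equal values. The ER chaperone genes lie low, with 16 of 17 below zero on the vertical axis, while Per3, Dbp, Ciart and Nat8f5 lie in the upper left, below zero only on the horizontal axis.

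The same contrast in WT rests on 4 day and 4 night arrays. WT had 202 called genes (1.45%), of which 92 (0.659%) were higher in the early night and 110 (0.788%) in the early day. Of the 8 genes called in KO, 7 were among them, which is 87.5% of the KO genes and 3.47% of the WT genes. Tsc22d3 was -1.08 in WT, Alas1 -0.79, Slc16a14 -0.59 and Nat8f5 -1.91. The WT levels of Nat8f5 were higher in both windows, 7.36 to 8.41 by day and 9.48 to 10.26 by night. Of the 92 genes called as night-high in WT, 87 had the same sign in KO, 50 of them with an unadjusted p under 0.05, and the median difference was -0.51 in WT and -0.23 in KO. Of the 110 day-high genes, 89 had the same sign, 27 with an unadjusted p under 0.05, and the medians were 0.41 and 0.10. Over all genes tested, 47.9% had the higher mean at night in KO. An unadjusted p under 0.05 in KO was found for 2.73% on the night side and 2.51% on the day side. Because these genes were chosen by their WT values, their WT medians tend to be too large. The smaller KO medians alone thus do not show a weaker difference in KO.

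The test of the genotype difference called 2 genes (0.0143%), with 716 at an unadjusted p under 0.05 (5.13%). Arntl differed between the windows by 1.47 ± 0.15 in WT and by -0.20 ± 0.16 in KO, a genotype difference of -1.68 ± 0.22 (adjusted p = 0.0224). Its WT arrays at ZT12 read 5.69 and 5.58, while no KO array of the comparison was below 7.61. Ddc, which makes dopamine in the proximal tubule, read 10.02 to 10.18 by day and 9.82, 9.49 and 10.23 by night in KO, and 9.85 to 10.17 and 8.88 to 9.02 in WT. Its difference was 0.25 ± 0.09 in KO and 1.07 ± 0.08 in WT, a genotype difference of -0.82 ± 0.12 (adjusted p = 0.0444), and it was lost in 11 of 15 fits without 1 array; the widest change came without the KO ZT16 pool (-0.63, adjusted p = 0.998). The Ddc call held without either KO ZT12 pool or either WT ZT4 pool. That of Arntl was lost in 7 of the 15, each without a WT ZT0, WT ZT12, KO ZT4 or KO ZT16 pool, with adjusted p from 0.0745 to 0.244 (-1.47 without the KO ZT16 pool). Without the KO ZT20 pools in the fit, neither was called (adjusted p = 0.0561 and 0.0717). For Per2 the genotype difference was 0.76 ± 0.20 (adjusted p = 0.577), so the smaller value in KO was not called as different. The repressors as a list had a median of -0.22 in KO and -0.83 in WT, with 8 of 10 called in WT and 0 called for the genotype difference, while 6 of the 10 had an unadjusted p under 0.05 for it.

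The mean of the 17 ER chaperone genes was 9.88 and 9.87 in WT against 10.13 and 10.09 in KO at ZT12, and 10.34 and 10.42 against 10.34 at ZT16. Herpud1, a member that acts in ER-associated degradation, ran the other way at ZT12, at 11.77 and 11.88 in WT against 11.57 and 11.71 in KO, and the genotypes were not tested against each other at a single time. Hspa5 read 11.75 and 11.53 at ZT0, 11.34 and 11.37 at ZT12, and 12.14 and 12.28 at ZT16 in WT, so its WT level was lower at ZT12 than at ZT0, whereas in KO it was higher. The ER list had a median from ZT0 to ZT12 of -0.13 in KO and 0.24 in WT, and from ZT4 to ZT16 of -0.46 in KO and -0.37 in WT. The genotype difference within each pair of times was tested after these values had been seen. For ZT0 against ZT12 it was -0.65 ± 0.12 for Hyou1 (adjusted p = 0.364), -0.87 ± 0.18 for Creld2 (adjusted p = 0.372) and -0.64 ± 0.13 for Hspa5 (adjusted p = 0.398), none called. The 2 genes called in that test (0.0143%; 3.95% at an unadjusted p under 0.05) were Arntl (-2.49 ± 0.30, adjusted p = 0.00387) and the GTPase family gene Rhobtb1 (-1.24 ± 0.15, adjusted p = 0.00387), which read 9.26 and 9.39 at ZT0 and 8.12 and 7.88 at ZT12 in WT but 9.29 and 9.21, then 9.24 and 9.07, in KO. For ZT4 against ZT16 limma called 0 genes (0%), with 500 at an unadjusted p under 0.05 (3.58%), and the value of Hspa5 was 0.00 ± 0.15.

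Lists of ion, water and blood pressure genes had few differences between the windows in KO. For comparison, 0.0573% of all genes were called and 5.24% had an unadjusted p under 0.05 in either direction. The transporters Slc16a14, which was called, Slc6a19 and Slc22a26 are given above. Across 11 sodium transporters the differences ran from -0.23 to 0.26 and 0 were called by limma, with 1 at an unadjusted p under 0.05 in each direction; the largest was the phosphate cotransporter Slc34a3, at 9.90 to 10.25 by day and 9.64 to 9.84 by night (0.26 ± 0.09, adjusted p = 0.803). Among 14 genes that regulate distal sodium uptake, Tsc22d3 was the 1 called member, and Sgk1 was the only other at an unadjusted p under 0.05. Among 14 water and urea genes the osmolyte transporter Slc5a3, which brings in myo-inositol, stood out with 10.16 to 10.33 by day and 10.48 to 10.68 by night (-0.33 ± 0.08, adjusted p = 0.364), and 0 were called. The lists of potassium, calcium, magnesium and phosphate genes (15 measured), acid-base genes (14) and renin-angiotensin and blood pressure genes (9) had 0 called members and 0, 1 and 1 at an unadjusted p under 0.05, with medians between -0.01 and 0.05. Among 12 enzymes of 20-HETE and eicosanoid metabolism, 0 were called and 0 had an unadjusted p under 0.05; Cyp4a12a read 7.79 and 9.56 at ZT12 against 6.07 to 7.93 by day and 6.92 at ZT16 (-0.94 ± 0.52).

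Metabolic lists had similarly few differences. Over all genes tested, 0.0573% were called and 5.24% had an unadjusted p under 0.05 in either direction. In those of fatty acid oxidation (15 measured), glucose and monocarboxylate handling (16), cholesterol synthesis (12), amino acid transport and metabolism (17) and NAD and redox genes (15), 0 members were called and between 0 and 2 per list had an unadjusted p under 0.05. The gluconeogenic enzyme Pck1 read 12.02 to 12.30 by day and 12.35 to 12.56 by night (-0.23 ± 0.08, adjusted p = 0.744), and the glucose transporter Slc2a2 read 10.96 to 11.15 and 10.70 to 10.85 (0.27 ± 0.07, adjusted p = 0.467), both without overlap. Hmox1, which degrades heme, differed by -0.30 ± 0.13 (adjusted p = 0.878). Of 19 phase I and II enzymes 17 had the higher mean at night (47.9% of all genes did) and Nat8f5 was the 1 called. The median of these enzymes was -0.15 in KO and -0.20 in WT. Of 14 sex-dimorphic kidney genes, Nat8f5 was again the 1 called, and 3 had an unadjusted p under 0.05, all higher at night (2.73% of all genes). The median of this list was -0.33, against 0.00 over all genes tested. Organic anion, cation and drug transporters had 0 of 15 called and 1 at an unadjusted p under 0.05, and immediate early genes 0 of 13 and 1, with Ier3 at -0.47 ± 0.15.

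Markers of other tissues moved with the windows in places. Fat cell markers were higher by day for 6 of 6 members (differences 0.25 to 0.93, 0 called, 2 at an unadjusted p under 0.05). Of all 13967 genes, 7283 had the higher mean by day, and 2.51% had an unadjusted p under 0.05 on that side. The mean of the fat cell markers was 5.63 to 6.38 in the day arrays and 5.24 to 5.65 in the night arrays. These are dim levels, near the medians of whole arrays (5.88 to 6.01). The blood cell markers above the filter, Alas2 and Slc4a1, of which Slc4a1 is also made by intercalated cells, had a mean of 7.71 to 7.88 by day and 7.11 to 7.44 by night. The gap came from Alas2 (0.91). Slc4a1 differed by 0.08 and overlapped, at 8.09 to 8.35 by day and 8.02 to 8.39 by night. Cell proliferation genes had a mean of 7.11 in KO ZT0 pool 1 against 6.28 to 6.39 in the other day arrays and 6.23 to 6.30 at night (0 of 13 called, 1 at an unadjusted p under 0.05, median 0.20), and collagen and stromal genes were also highest in that pool, at 9.11 against 8.48 to 8.78 elsewhere in the comparison (0 of 13 called). Without that pool, Creld2, Hspa5, Hyou1 and Tsc22d3 stayed called. These lists had positive medians, on the day side, and their part in the differences of the called genes was not tested. Of 9 adrenal markers 2 passed the filter, with a mean of 5.32 to 5.76 by day and 5.37 to 5.56 by night, and 7, among them Star and Cyp11b1, did not. Immune markers (11 measured, 6.59 to 6.69 by day and 6.59 to 6.83 by night), endothelial markers (9, with 9.03 to 9.26 and 9.08 to 9.18), distal convoluted tubule markers (7, with 10.17 to 10.26 and 10.15 to 10.19), intercalated cell markers (9, with 8.78 to 8.92 and 8.81 to 8.82), muscle markers (3, with 5.85 to 6.26 and 5.99 to 6.08) and tubular injury genes (7, with 7.16 to 7.57 and 7.20 to 7.63) overlapped between the windows and had 0 called members, with 0 to 1 per list at an unadjusted p under 0.05.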

How the data were processed

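RNA was measured on Affymetrix whole-transcript arrays. The authors deposited log2 values per probe set made with RMA, per the submitters' processing notes; for its version and the genome build, nothing is given in the sources used here. Quantile normalization within RMA removes shifts shared by most genes, and RMA values compress the differences of dim probe sets. Arrays carry no depth, and their number limits the precision.

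Of 35556 probe sets, 21789 have 1 symbol in the platform annotation, 1621 several and 12146 none listed; the gene numbers of 21698 matched the RefSeq table (GRCm38.p6), with 0 new symbols. Probe sets under the 30th percentile of the mean were left out, and the brightest stood for each gene (13967). limma 3.58.1 in R 4.3.3 was fitted to 12 genotype and time means (10 residual degrees of freedom), tested on simulated data; the lone ZT16 pool takes its spread from the other groups.

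The members and the 39 gene lists were chosen with earlier results of these data known. Named genes were the called genes, the largest differences up to 15 per direction without overlap at an unadjusted p under 0.01, all clock genes and leading list members; all members of the ER chaperone, heat shock, cold-inducible, glucocorticoid-responsive and blood cell lists were added after their values were seen. Lists were counted, not tested. Alternatives were other filters, scalings, spreads, weights, a pool block, single pools and leaving out arrays.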

Additional observations from a re-analysis of the deposited data

Results flagged for a closer look

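In the 4 early day arrays of KO, 8 of 130 named genes had 1 array far from the other 3 by Dixon's criterion, where chance gives about 1 in 20. ZT4 pool 2 was high for Slc6a19 (11.29), Gm11992 (8.80) and Coq10b (8.94) and low for Ckm (5.73). ZT0 pool 1 was high for Dtx4 (8.65) and Agtr1a (9.63), ZT0 pool 2 was low for Srsf5 (10.61), and ZT4 pool 1 was low for Cry1 (7.02). None of these genes was called between the windows.

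The day to night difference itself differed between the genotypes in limma's test for Arntl (KO minus WT -1.68) and Ddc (-0.82). Both calls were lost without single arrays, as given above.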

How the results depend on the processing

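The 8 night-high calls of KO became 5 with the times of a window weighted equally, 1 with the 11 KO arrays alone, and 0 with the 7 arrays, pool 1 or pool 2 alone; without 1 array they were 3 to 9, lowest without ZT12 pool 2 (3), then without ZT0 pool 1 or ZT12 pool 1 (4 each). Day-high calls (0) became 1 with the 50th percentile filter, the repeated quantile normalization, the trended robust spread or the pool block, and 2 with the 11 KO arrays alone, Alas2 among them. At an unadjusted p under 0.05, pool 1 alone gave 5 ER chaperone (11), 3 heat shock (6), 1 repressor (3), 3 output (7) and 2 glucocorticoid genes (4), all counts with all arrays in parentheses, and pool 2 alone 2 ER chaperone and 0 heat shock genes. Without 1 array these counts were 9 to 11, 5 to 7, 2 to 6, 5 to 9 and 2 to 5. ZT0 minus ZT12 had 10 night-high calls with the 50th percentile filter or the pool block, 11 with the trended spread and 3 with the 11 KO arrays (main 6; 0 to 7 without 1 array), and 2 day-high with the trended spread and 1 without the ZT20 pools (0 to 2). ZT4 minus ZT16 had 1 night-high with medians subtracted or the 11 KO arrays (main 2; 0 to 2), and 8 day-high with the pool block and 1 with the 11 KO arrays. WT day-high calls (110) were 73 without a filter, 67 with array weights and 0 in either pool alone (46 to 147), and WT night-high (92) 57 with medians subtracted, 60 with array weights, 1 in pool 1 and 0 in pool 2 (44 to 105). Genotype differences (2) were 1 without a filter, with every probe set, the repeated normalization or the pool block, and 0 without the ZT20 pools or in either pool alone (0 to 5). In limma fits with 0 night-high KO calls, 380, 130 and 315 genes had an unadjusted p under 0.05 (7 arrays, pool 1, pool 2). The cause of these changes was not tested.

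Pool numbers were not taken as pairing the samples, since the labels do not say what pools of the same number share. Deviations of pools with the same number correlated at -0.41 to 0.55 over 45 pairs of groups (median 0.12, 25 over 0.1). Over the 3 pairs of KO groups compared they correlated at -0.17 to 0.36 (2 over 0.1). These values do not show that pools of the same number were unrelated, and a shared source was not tested. With pool number as a replicate block, 7 night-high genes were called, Per2 was not (adjusted p = 0.062), and repressors at an unadjusted p under 0.05 numbered 5. Over all genes, 529 night-high and 512 day-high had an unadjusted p under 0.05 with the block, against 381 and 351 without it. No called gene reversed in any setting. Of 5998 values of uncalled named genes, 5674 stayed within 1 SD, 306 moved further, 18 passed the threshold and 0 passed it with the opposite sign.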
